A study of Mus musculus with 6 samples.

Results

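The proteasome genes were examined in splenic follicular (Fo) B cells, with 50 gene symbols chosen by name out of 24346 in the tables. The rule took every symbol that starts with Psma, Psmb, Psmc, Psmd, Psme, Psmf or Psmg followed by a number, and it used no measured value. RNA sequencing libraries came from mice aged 8 weeks, 3 from B6 controls, here WT, and 3 from G9gl HL homozygous mice, here G9gl, in which the knocked-in antibody is the germline form that preceded an anti-dsDNA antibody of a lupus patient. In both genotypes the cells were gated as B220+ CD93- CD21lo CD23hi, and WT and G9gl were compared to learn about the anergic state of G9gl B cells. No label says that libraries of a group came from separate mice. The p-values therefore set the genotype difference only against the scatter among these samples, and that scatter may be technical.

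The proteasome is the main protease of the cytosol and nucleus. Its 20S core is a stack of rings, with outer rings of alpha subunits that gate the channel and inner rings of beta subunits, of which Psmb5, Psmb6 and Psmb7 carry the active sites. The 19S cap recognises ubiquitin-tagged proteins, unfolds them with its ATPases and feeds them into the core. Lymphocytes and cells exposed to interferon also make the immunoproteasome, in which Psmb8, Psmb9 and Psmb10 take the places of Psmb5, Psmb6 and Psmb7, and the PA28 cap of Psme1 and Psme2. Both forms of the particle supply peptides for major histocompatibility complex (MHC) class I molecules.

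Levels are given as FPKM, fragments scaled to transcript length and library size. Libraries were estimated to hold 9270000 to 10840000 fragments, at which a 1 kb transcript of 100 FPKM is backed by 927 to 1084 of them. A gene had to reach 1 FPKM in 3 or more libraries to be tested with limma on log2(FPKM + 1), and adjusted p-values under 0.05 were calls. That scale, G9gl over WT, holds for all fold changes, and errors are SD (n = 3 per group) for levels and SE for log2 fold changes. Over the 10122 tested genes, the share called was 11.8% for higher and 11.6% for lower levels in G9gl. In bulk RNA, a change in RNA per cell and a change in the mix of cells cannot be told apart. Cd93, a marker of immature cells that the gate excluded, had 1.65 ± 0.147 FPKM in WT and 1.46 ± 0.385 in G9gl. Vpreb3, listed here with Cd93 as an immature B cell gene, was called lower, with 403 ± 15.8 FPKM in WT and 166 ± 15.3 in G9gl. The 8 B cell genes summed to 8122 to 8385 FPKM in the WT libraries and 7266 to 7578 in G9gl, and 5 of them, Ms4a1, Cd79a, Pax5, Fcer2a and Cr2, were called lower. Genes of the gate markers are among these. Cr2, which encodes CD21, had a mean of 131 FPKM in WT and 61.2 in G9gl. Fcer2a, which encodes CD23, had 946 in WT and 794 in G9gl. Ptprc, which encodes B220, was not called. Whether the gated cells match between genotypes was not tested.

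Of the 50 proteasome genes, 48 were tested, and 18 were higher, 1 lower and 29 not called in G9gl. The share called higher was 37.5%, against 11.8% of all tested genes, and 30 of the 48 had G9gl libraries all above the WT libraries, against 20.3% of all tested genes. The 1 lower gene was Psme2b, and for 2 genes the G9gl libraries all lay below WT, against 20.5% of all tested genes. The median log2 fold change was 0.17, against -0.0022 over all tested genes. The largest increases were in Psmb9, Psme1, Psmg1, Psme2 and Psmb10. The 2 genes left untested were Psma8, the alpha subunit of testis, at 0 to 0.133 FPKM, and Psmb11, the catalytic subunit of the thymus form, at 0 to 0.223 FPKM.

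Scaling bears on these counts, because most changes were small. With each library rescaled to the same total (TPM), the median of all 10122 tested genes moved to -0.13, with 730 higher and 2493 lower. Of the proteasome genes, 8 were then higher and 4 lower. The 8 were Psma2, Psma4, Psmb8, Psmb9, Psmb10, Psme1, Psme2 and Psmg1, and the 4 were Psmd4, Psme2b, Psme3 and Psmg4. After quantile normalization 12 were higher and 1 lower. Without WT replicate 2 the count higher was 10, and without G9gl replicate 1 it was 11. Over all 17 alternative settings, 7 of the 18 genes kept their call each time, namely Psma2, Psma4, Psmb9, Psmb10, Psme1, Psme2 and Psmg1.

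**Figure D1:**
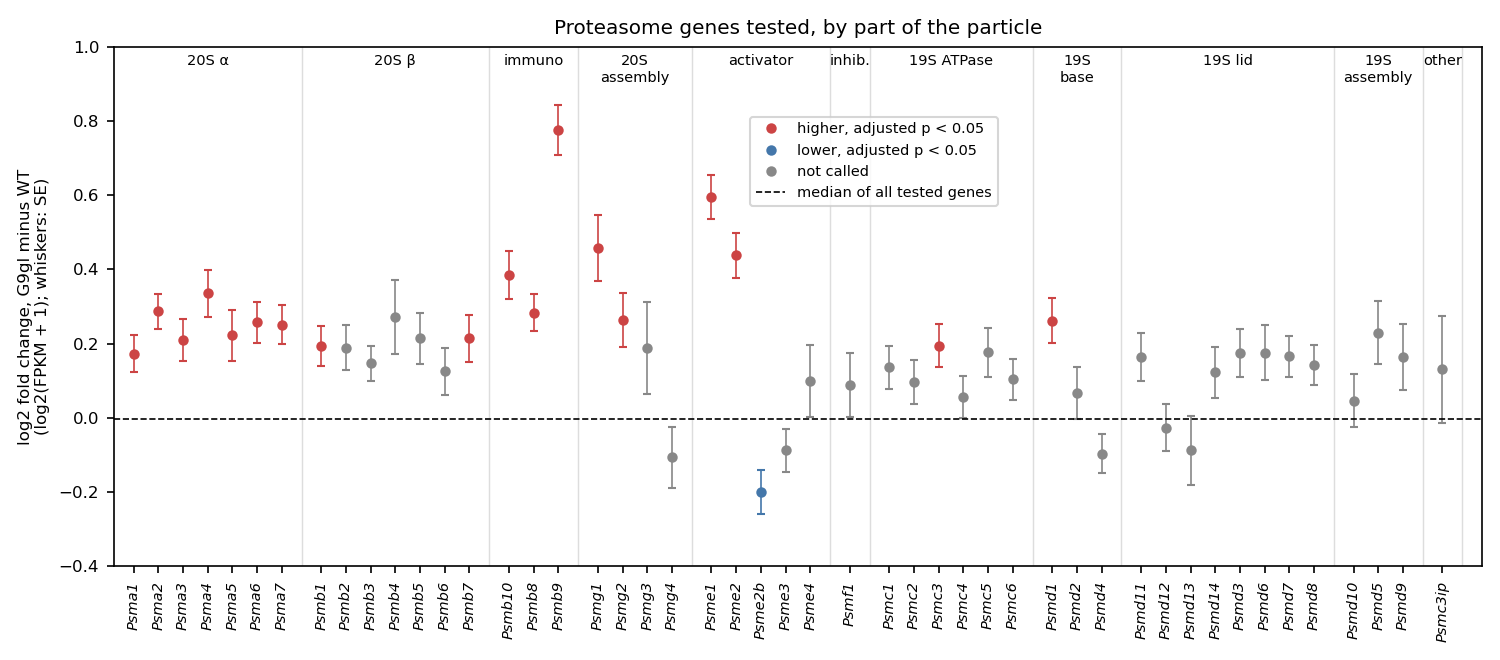
Log2 fold change, G9gl minus WT, of the 48 tested proteasome genes (vertical axis, log2(FPKM + 1) scale), ordered by part of the particle; whiskers are SE and the dashed line is the median of all tested genes. Psmb9 at 0.78 and Psme1 at 0.60 stand highest, and Psme2b at -0.20 is the only gene called lower.

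The start regions of 5 catalytic and activator genes are shown because they include both catalytic pairs whose immunoproteasome genes lie in the MHC and the most increased activator gene, and because Psmb9 and Tap1 rose by nearly the same amount from adjoining starts. Sequences are from RefSeq on GRCm38.p6, the assembly that mm10 denotes. Each runs 5′ to 3′ on the gene's strand from 250 bases before the RefSeq start to 50 bases after it. For Psmb9, Psmb8 and Psme1, the GENCODE gene begins further upstream. Their windows therefore lie wholly inside the gene spans given below, and bases upstream of those spans were not searched. Of the 50 symbols, 43 matched a window of 300 bases. Capitals mark matches, on either strand, to the GAS motif of interferon signalling (TTCNNNGAA), the ISRE motif of interferon regulatory factors (GAAA, any 2 bases, GAAA), the antioxidant response motif (TGACNNNGC) and the CCAAT box (CCAAT); the motifs may overlap, and a match is no evidence of binding.
Psmb9 (chr17:34187281-34187580, minus strand): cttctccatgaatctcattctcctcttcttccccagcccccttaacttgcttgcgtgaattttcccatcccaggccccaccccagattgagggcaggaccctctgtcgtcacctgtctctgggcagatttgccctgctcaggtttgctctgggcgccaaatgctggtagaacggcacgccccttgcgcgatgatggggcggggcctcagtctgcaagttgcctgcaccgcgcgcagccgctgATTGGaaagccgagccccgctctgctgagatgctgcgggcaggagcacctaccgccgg
Psmb8 (chr17:34197945-34198244, plus strand): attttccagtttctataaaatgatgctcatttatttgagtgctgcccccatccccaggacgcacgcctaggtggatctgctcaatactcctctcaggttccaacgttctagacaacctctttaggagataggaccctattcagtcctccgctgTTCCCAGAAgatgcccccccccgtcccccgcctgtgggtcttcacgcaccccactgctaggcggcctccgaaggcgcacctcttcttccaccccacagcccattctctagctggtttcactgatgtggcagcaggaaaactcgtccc
Psme1 (chr14:55578244-55578543, plus strand): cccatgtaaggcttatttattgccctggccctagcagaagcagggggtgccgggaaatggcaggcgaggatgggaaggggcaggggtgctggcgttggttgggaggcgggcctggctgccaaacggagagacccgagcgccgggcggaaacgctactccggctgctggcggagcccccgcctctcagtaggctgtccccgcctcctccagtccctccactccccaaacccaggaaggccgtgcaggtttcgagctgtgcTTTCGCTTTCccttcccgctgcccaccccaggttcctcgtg
Psmb6 (chr11:70525107-70525406, plus strand): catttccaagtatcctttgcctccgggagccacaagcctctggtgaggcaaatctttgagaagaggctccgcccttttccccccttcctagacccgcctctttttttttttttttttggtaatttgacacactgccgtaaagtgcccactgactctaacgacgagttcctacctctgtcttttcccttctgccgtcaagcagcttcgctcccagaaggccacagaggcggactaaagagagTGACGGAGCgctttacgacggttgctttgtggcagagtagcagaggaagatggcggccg
Psmb5 (chr14:54617946-54618245, minus strand): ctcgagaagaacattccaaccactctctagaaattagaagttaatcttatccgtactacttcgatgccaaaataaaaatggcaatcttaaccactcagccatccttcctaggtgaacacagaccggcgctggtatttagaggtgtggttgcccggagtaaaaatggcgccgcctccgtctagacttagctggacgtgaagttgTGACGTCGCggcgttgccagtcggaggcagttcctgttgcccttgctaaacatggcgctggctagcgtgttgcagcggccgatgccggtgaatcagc

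In these windows, Psmb9 held a CCAAT box on the opposite strand, Psmb8 a GAS match, Psme1 an ISRE match on the opposite strand, and Psmb6 and Psmb5 1 antioxidant response match each. Psmb10 and Psme2 held none of the 4 motifs. Over the 27025 windows of that length with a symbol, GAS was found in 8.47%, ISRE in 3.49%, the antioxidant response motif in 12.5% and CCAAT in 37.9%. Over the 43 proteasome windows the shares were 6.98%, 11.6%, 14% and 34.9%. The 5 proteasome windows with an ISRE match were those of Psmd4, Psmd9, Psmb3, Psmg4 and Psme1, of which only Psme1 was called higher. The 3 with a GAS match were those of Psmd2, Psmg1 and Psmb8, of which Psmg1 and Psmb8 were called higher and Psmd2 was not. The Psmb9 window overlaps that of Tap1, on the plus strand, over 275 bases (chr17:34187306-34187580), and their RefSeq starts lie 226 bases apart.

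Psmb9, the immunoproteasome subunit LMP2, rose most of all proteasome genes. Its gene (chromosome 17, 34181987 to 34187764, mm10) lies in the MHC. Its FPKM were 231, 214 and 205 in WT and 400, 373 and 343 in G9gl. The lowest G9gl library was well above the highest WT library. The mean went from 217 ± 13.1 to 372 ± 28.2 FPKM, a log2 fold change of 0.78 ± 0.068 (1.71-fold, limma adjusted p 7.3e-05), and it stayed between 0.64 and 0.83 in every alternative run. Of the Psmb9 transcript's 50-base stretches, 12.5% also occur in Tap1 transcripts, which run the opposite way. As the libraries keep no strand, fragments from these stretches could be assigned to either gene, so both levels are uncertain.

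Psmb8, the subunit LMP7 of the chymotrypsin-like site, had the highest level of all proteasome genes. Its gene (chromosome 17, 34197721 to 34201454) follows Tap1. The FPKM were 511, 518 and 523 in WT and 641, 654 and 596 in G9gl. The groups did not overlap, and the rise was 1.22-fold (log2 0.28 ± 0.050, adjusted p 0.0035), close in size to those of constitutive core genes. Quantile normalization lowered its log2 fold change to 0.11 (adjusted p 0.14).

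Psmb10, the subunit MECL-1 of the trypsin-like site (chromosome 8, 105935735 to 105938444), was 132, 123 and 132 FPKM in WT and 177, 175 and 155 in G9gl. Each G9gl library exceeded each WT library. The rise was 1.31-fold (log2 0.39 ± 0.065, adjusted p 0.0026). The 3 immunoproteasome genes were all called higher in each fit with 1 library left out, and their summed FPKM went from 863 ± 9.28 to 1172 ± 67.2.

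Of the constitutive catalytic subunits, only Psmb7 was called. Psmb5, of the chymotrypsin-like site, had 133, 152 and 154 FPKM in WT and 178, 169 and 161 in G9gl. The groups did not overlap, with WT replicate 1 the lowest, and the adjusted p was 0.052. Psmb6, of the caspase-like site, had 191, 182 and 212 FPKM in WT and 207, 220 and 210 in G9gl, so that WT replicate 3 lay within the G9gl range (adjusted p 0.19). Psmb7, of the trypsin-like site, had 62.2, 58.9 and 56.9 FPKM in WT and 72.4, 65.8 and 68.7 in G9gl. It rose 1.16-fold (adjusted p 0.036), a call that was lost in 8 of the 17 alternatives. The gene overlaps Nek6 on the opposite strand, and 28.1% of its 50-base stretches occur in Nek6 transcripts. The share that occurs in transcripts of other annotated genes was 57.1% for Psmb5, 55.8% for Psmb3, 55.4% for Psma5, 31.5% for Psma4 and 14.1% for Psme1. It was 22% for Psma3, and from 15.8% to 27.1% for Psmd13, Psmc1, Psmd11, Psmg3, Psmd2 and Psmc3ip. The levels of all these genes are uncertain too.

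**Figure D2:**
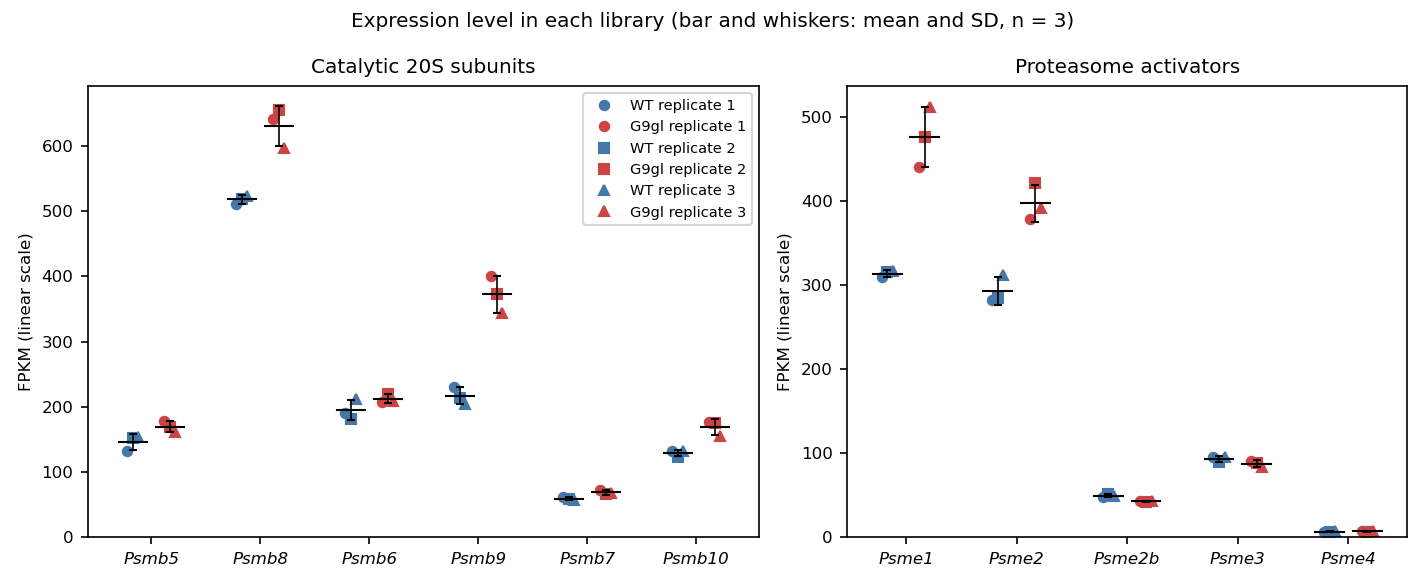
FPKM in each library (vertical axis, linear scale) for the 6 catalytic subunits, with each constitutive gene beside the immunoproteasome gene that replaces it, and for the 5 activator genes; bars and whiskers are mean and SD, n = 3. The mean of Psme1 goes from 314 to 476 FPKM and that of Psmb9 from 217 to 372, without overlap, while Psmb6, Psme3 and Psme4 overlap between genotypes.

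Ratios within a library do not depend on a factor applied to the whole library, so each immunoproteasome gene was set against the gene it replaces. Quantile normalization is no such factor, and with it the log2 fold change was 0.11 for Psmb8 and 0.17 for Psmb5, the reverse of their order without it. The Psmb9/Psmb6 ratio was 1.21, 1.18 and 0.969 in WT and 1.93, 1.698 and 1.64 in G9gl. The groups were apart, with a mean of 1.12 ± 0.131 against 1.76 ± 0.153, a 1.57-fold difference. The 2-sided exact permutation p was 0.1, the smallest that 3 against 3 libraries can give, and 0.3 after Benjamini-Hochberg adjustment over the 3 pairs.

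The Psmb8/Psmb5 ratio was 3.85, 3.41 and 3.405 in WT and 3.597, 3.87 and 3.705 in G9gl, which overlap (exact permutation p 0.3, adjusted 0.3). The Psmb10/Psmb7 ratio was 2.12, 2.09 and 2.32 in WT and 2.44, 2.66 and 2.25 in G9gl, where G9gl replicate 3 lay below WT replicate 3 (exact permutation p 0.2, adjusted 0.3). Immunoproteasome genes thus exceeded their counterparts in both genotypes, except for Psmb9 in WT replicate 3. Their share of the summed FPKM of the 6 catalytic genes was 69.4%, 68.6% and 67.1% in WT and 72.7%, 72.6% and 71.4% in G9gl, with no overlap. The shared stretches of Psmb5, Psmb7 and Psmb9 given above make these ratios and shares uncertain too. Whether the change in the Psmb9/Psmb6 ratio differs from that in the other ratios was not tested.

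**Figure D3:**
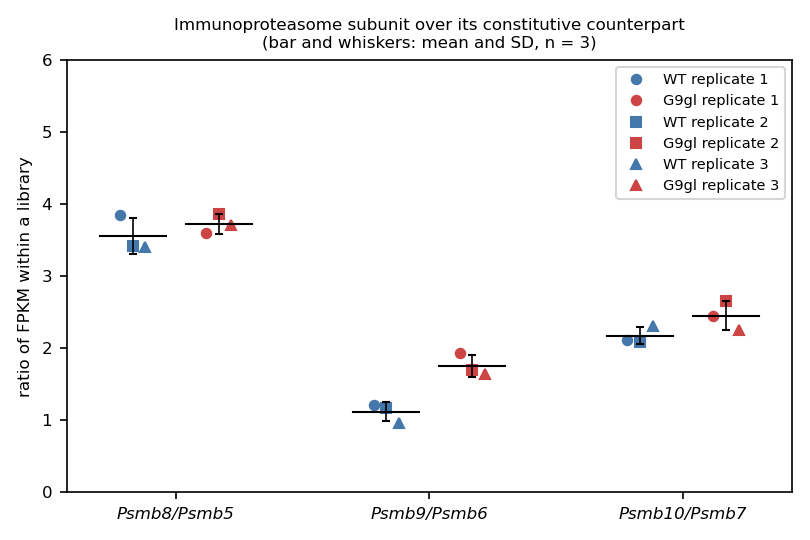
Ratio of FPKM within each library (vertical axis, linear scale) for the 3 pairs of immunoproteasome and constitutive subunits; bars and whiskers are mean and SD, n = 3. Psmb9/Psmb6 separates the genotypes, from 0.969 to 1.21 in WT and from 1.64 to 1.93 in G9gl, and the other ratios overlap.

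The PA28 genes rose as well. Psme1, the PA28 alpha subunit (chromosome 14, 55578123 to 55581529), had 310, 316 and 317 FPKM in WT and 440, 476 and 512 in G9gl. The WT libraries were tightly grouped and all G9gl libraries lay above them. The rise was 1.51-fold (log2 0.60 ± 0.060, adjusted p 1.4e-04). Psme2, the PA28 beta subunit (chromosome 14, 55587441 to 55591113), had 282, 285 and 312 FPKM in WT and 379, 422 and 392 in G9gl. It rose 1.35-fold (log2 0.44 ± 0.061, adjusted p 9.1e-04), without overlap between groups.

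Psme2b, a close copy of Psme2 on chromosome 11 (48945354 to 48946190), went the other way. It had 48.1, 51.4 and 49.2 FPKM in WT and 43.9, 42.3 and 42.8 in G9gl, a decrease of 1.15-fold (log2 -0.20 ± 0.059, adjusted p 0.037). The copies share 541 stretches of 50 bases, which is 59.3% of those in Psme2, and fragments from one could be assigned to the other, so the levels of both are uncertain. The call for Psme2b was lost without WT replicate 2 or 3, without G9gl replicate 2 or 3 and with the replicate number as a block, with adjusted p from 0.076 to 0.12.

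The other activators and the inhibitor were not called. Psme3, the nuclear PA28 gamma, had 95.3, 89.8 and 95.2 FPKM in WT and 91.5, 88.5 and 83.7 in G9gl (adjusted p 0.31). The ranges overlapped, and after rescaling to TPM it was called lower (log2 -0.22, adjusted p 0.015). Psme4, which encodes the activator PA200, had 6.90, 6.53 and 7.29 FPKM in WT and 7.51, 6.93 and 7.99 in G9gl (adjusted p 0.50). Psmf1, the gene of the inhibitor PI31, had 17.4, 18.9 and 18.7 FPKM in WT and 21.8, 18.9 and 18.1 in G9gl (adjusted p 0.50). Both overlapped between genotypes and changed sign with TPM.

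The alpha subunits of the core rose together by small amounts. All 7 of Psma1 to Psma7 were called higher, against 11.8% of all tested genes. In each of them all G9gl libraries lay above WT, as in 20.3% of all tested genes. Their log2 fold changes ran from 0.17 (Psma1) to 0.34 (Psma4), with a median of 0.25 against -0.0022 for all tested genes. Psma4 had 91.2, 81.7 and 93.2 FPKM in WT and 112, 111 and 114 in G9gl (1.26-fold, adjusted p 0.0045). Psma2 had 264, 256 and 251 FPKM in WT and 315, 321 and 304 in G9gl (1.22-fold, adjusted p 0.0025). In both, the gap between groups was larger than the spread within either.

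Psma7 had 255, 233 and 240 FPKM in WT and 295, 293 and 278 in G9gl (1.19-fold, adjusted p 0.0087). Psma6 had 185, 178 and 192 FPKM in WT and 230, 224 and 211 in G9gl (1.195-fold, adjusted p 0.0089). Both were separate between genotypes and lost their call with TPM, at adjusted p of 0.097 and 0.093. The count of alpha genes called higher was 4 without WT replicate 2 or without any 1 of the G9gl libraries, 4 after quantile normalization or with the trend on GC content and length removed, and 2 with TPM, where the median was 0.12.

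The beta subunits of the constitutive core had the same direction but fewer calls. Of the 7, Psmb1 and Psmb7 were called higher, against 11.8% of all tested genes. An unadjusted p under 0.05 was reached by 6, a share that was 36.4% over all tested genes. Their log2 fold changes ran from 0.13 (Psmb6) to 0.27 (Psmb4), with a median of 0.19. Psmb1 had 271, 245 and 251 FPKM in WT and 295, 296 and 284 in G9gl (1.14-fold, adjusted p 0.029). Psmb2 had 228, 222 and 226 FPKM in WT and 272, 264 and 236 in G9gl (adjusted p 0.052). Psmb3 had 296, 285 and 307 FPKM in WT and 327, 329 and 327 in G9gl (adjusted p 0.054).

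These 3 were separate between genotypes, while Psmb4 was not. Psmb4 had 116, 84.9 and 103 FPKM in WT and 125, 124 and 115 in G9gl, with WT replicate 1 above G9gl replicate 3 (adjusted p 0.079). The beta count was 3 without WT replicate 1, 1 without G9gl replicate 3 and 0 without any 1 of the other libraries, and 0 with TPM. Over the 14 constitutive core genes together, 9 were called higher and 0 lower, against 11.8% and 11.6% of all tested genes. The summed FPKM of the 14 went from 2492 ± 86.9 to 2891 ± 63.0. Levels per length in WT ran from 59.3 ± 2.65 FPKM in Psmb7 to 296 ± 10.9 in Psmb3. Psmb10, which takes the place of Psmb7 in the immunoproteasome, had 129 ± 4.90 FPKM in WT.

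Few genes of the 19S cap were called. Of 17, Psmc3 and Psmd1 were called higher and 0 lower by limma, a share of 11.8%, as over all tested genes. An unadjusted p under 0.05 was reached by 9 of the 17, against 36.4% of all tested genes. All G9gl libraries lay above WT in 10 of the 17, against 20.3% of all tested genes, and 14 had a positive log2 fold change. The median log2 fold change was 0.14, and 0.0044 with TPM, where 0 were higher and 1, Psmd4, was lower. The summed FPKM went from 1439 ± 42.4 to 1553 ± 47.5.

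Of the 6 ATPases, which unfold substrates and open the core, Psmc3 had 106, 114 and 113 FPKM in WT and 128, 134 and 121 in G9gl (1.14-fold, adjusted p 0.0398). It was separate between genotypes but lost its call in 9 of 17 alternatives. The others ran from a log2 fold change of 0.056 (Psmc4) to 0.18 (Psmc5). Psmc5 had 103, 112 and 112 FPKM in WT and 129, 127 and 114 in G9gl (adjusted p 0.084). Psmc1 had 97.3, 101 and 102 FPKM in WT and 117, 106 and 107 in G9gl (adjusted p 0.12). Psmc6 had 49.1, 50.2 and 49.6 FPKM in WT and 52.0, 53.8 and 54.4 in G9gl (adjusted p 0.21). G9gl lay above WT in each of these 3, by margins that did not pass the test.

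In the base, Psmd1, a scaffold subunit, had 45.1, 45.5 and 47.7 FPKM in WT and 53.4, 54.9 and 58.3 in G9gl. It rose 1.20-fold without overlap (log2 0.26 ± 0.061, adjusted p 0.014), and lost its call without WT replicate 2 or G9gl replicate 3 and with TPM. Psmd4, a ubiquitin receptor, had 119, 119 and 123 FPKM in WT and 117, 113 and 108 in G9gl. All its G9gl libraries were below WT, with an adjusted p of 0.22, and of 0.0092 as lower with TPM. Psmd2, the other scaffold, had 91.3, 104 and 105 FPKM in WT and 111, 103 and 100.1 in G9gl, which overlap (adjusted p 0.54).

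In the lid, which removes ubiquitin chains through Psmd14, 0 of 8 genes were called by limma. An unadjusted p under 0.05 was reached by 5, against 36.4% of all tested genes. Psmd7 had 58.0, 55.6 and 59.1 FPKM in WT and 65.7, 63.1 and 65.4 in G9gl (adjusted p 0.062). Psmd3 had 61.2, 69.7 and 67.7 FPKM in WT and 74.6, 76.3 and 73.2 in G9gl (adjusted p 0.079). Psmd8 had 117, 117 and 119 FPKM in WT and 137, 129 and 125 in G9gl (adjusted p 0.088). These were separate between genotypes, as was Psmd6. Psmd11 had 94.3, 100.3 and 108.5 FPKM in WT and 118, 112 and 109.4 in G9gl, also separate (adjusted p 0.099). Psmd14 itself had 75.7, 72.1 and 76.6 FPKM in WT and 88.7, 75.0 and 81.3 in G9gl, which overlap (adjusted p 0.24). With the trend on GC content and length removed, 2 lid genes, Psmd3 and Psmd7, were higher, and with TPM 0 were called.

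Assembly factors of the core included a larger rise. Psmg1, which pairs with Psmg2 to build the alpha ring, had 24.3, 24.2 and 25.7 FPKM in WT and 35.4, 38.0 and 30.1 in G9gl. It rose 1.37-fold without overlap (log2 0.46 ± 0.089, adjusted p 0.0056). Psmg2 had 44.8, 47.0 and 48.9 FPKM in WT and 61.4, 52.1 and 56.4 in G9gl (1.20-fold, adjusted p 0.029), and lost its call in 8 of 17 alternatives. The partners Psmg3 and Psmg4 were not called, with adjusted p of 0.31 and 0.38. Psmg3 had 26.7, 35.0 and 36.0 FPKM in WT and 32.0, 38.4 and 40.9 in G9gl. Psmg4 had 95.9, 82.1 and 82.2 FPKM in WT and 86.1, 81.4 and 73.8 in G9gl. Their genotypes overlapped, and Psmg4 was called lower with TPM (adjusted p 0.039).

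Of the 3 chaperones of the 19S base, Psmd5, Psmd9 and Psmd10, 0 were called by limma. Only Psmd5 had an unadjusted p under 0.05, against 36.4% of all tested genes. Psmd5 had 50.7, 60.0 and 61.5 FPKM in WT and 63.1, 66.7 and 72.3 in G9gl (adjusted p 0.082). Its genotypes were separate, unlike those of the other chaperones. Psmd9 had 10.8, 9.81 and 10.2 FPKM in WT and 12.4, 10.7 and 11.8 in G9gl (adjusted p 0.22). Psmd10 had 32.7, 36.3 and 33.1 FPKM in WT and 37.1, 35.1 and 33.2 in G9gl (adjusted p 0.68). Psmc3ip, which the name rule also took although it encodes a recombination factor and no subunit, had 6.51 ± 0.178 FPKM in WT and 7.34 ± 1.63 in G9gl (adjusted p 0.55).

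Of 16 tested factors known to act on proteasome and class I genes, 7 were higher and 0 lower by limma, against 11.8% and 11.6% of all tested genes, with 9 at an unadjusted p under 0.05 (36.4% of all tested genes) and a median log2 fold change of 0.21. Nlrc5, the class I transactivator, had 10.5, 12.2 and 12.1 FPKM in WT and 23.3, 25.8 and 23.4 in G9gl (1.99-fold, adjusted p 6.6e-05). Irf1, a factor induced by interferon, had 126, 130.4 and 147 FPKM in WT and 235, 225 and 219.96 in G9gl (1.69-fold, adjusted p 7.3e-05). In both the genotypes were far apart. Irf8, Ciita, Irf9 and Nfe2l2 rose 1.42-fold, 1.47-fold, 1.35-fold and 1.31-fold. Nfe2l1, the factor that restores proteasome genes when the protease is impaired, had 34.7 ± 2.30 FPKM in WT and 35.8 ± 1.60 in G9gl (adjusted p 0.69).

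Of 12 tested genes that supply and load class I peptides, 5 were higher (11.8% of all tested genes) and 0 lower by limma, 8 had an unadjusted p under 0.05 (36.4% of all tested genes), and the median was 0.22. Tap1, a subunit of the peptide transporter, had 122, 132 and 143 FPKM in WT and 233, 229 and 223 in G9gl. It rose 1.72-fold (adjusted p 4.5e-05), beside 1.71-fold for Psmb9, with which it shares the window shown above. Tap2, the other transporter subunit, had 90.2 ± 4.28 FPKM in WT and 94.4 ± 8.17 in G9gl (adjusted p 0.57), although its gene lies in the same cluster as Psmb9, Tap1 and Psmb8. The class I chains H2-K1 and H2-D1 rose 1.73-fold and 1.31-fold, their light chain B2m 1.64-fold, and the loading factor Tapbp 1.20-fold.

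Of 19 tested partners of the proteasome, 2 were higher, or 10.5%, against 11.8% of all tested genes, and 0 lower by limma, with 8 at an unadjusted p under 0.05 (36.4% of all tested genes) and a median of -0.056. They were Shfm1, a small 19S subunit (1.17-fold, adjusted p 0.015), and Vcp, a ubiquitin-dependent unfoldase (1.14-fold, adjusted p 0.043). With TPM 0 were higher and 7 lower, against 730 and 2493 of all 10122 tested genes. Pomp, the maturation factor of the core, had 184 ± 14.0 FPKM in WT and 212 ± 11.8 in G9gl (adjusted p 0.051). Of 7 ubiquitin and activating enzyme genes, 3 were higher and 0 lower by limma, against 11.8% and 11.6% of all tested genes. An unadjusted p under 0.05 was reached by 4, against 36.4% of all tested genes. Among the 7, Uba7, which charges the ubiquitin-like protein Isg15, rose 1.36-fold, and Rps27a, which encodes ubiquitin fused to a ribosomal protein, rose 1.24-fold. After quantile normalization 1 of the 7 was higher.

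**Figure D4:**
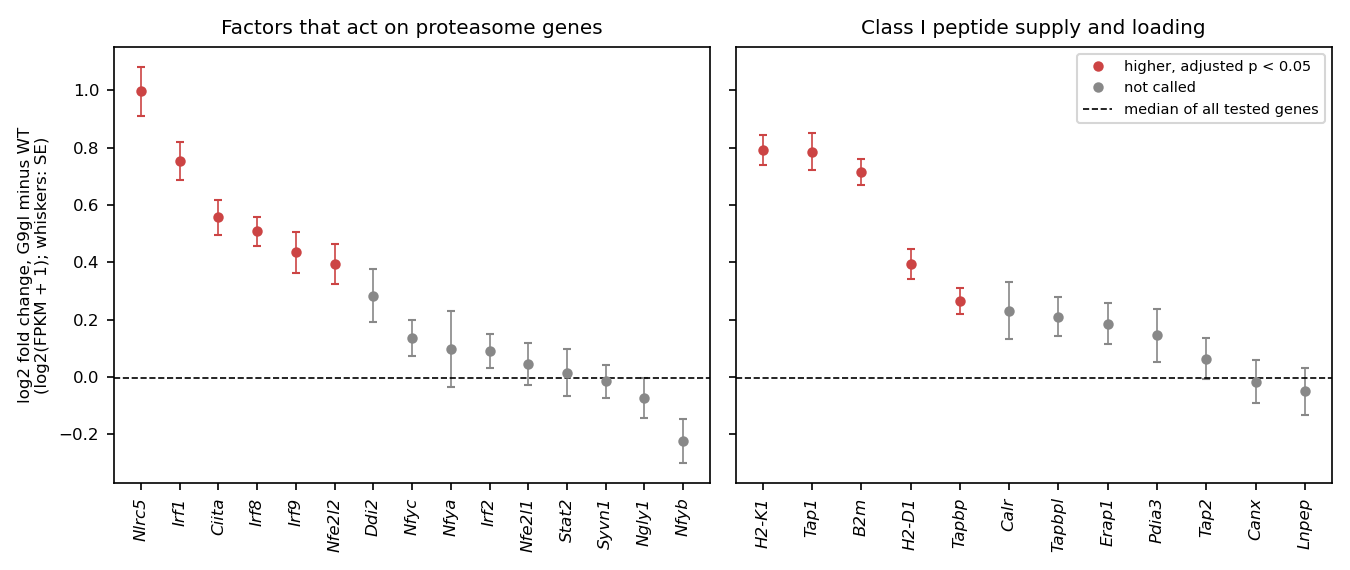
Log2 fold change, G9gl minus WT (vertical axis, log2(FPKM + 1) scale, whiskers SE), of factors that act on proteasome genes (left) and of class I peptide supply and loading genes (right), each ordered by value; the dashed line is the median of all tested genes. Of the genes shown, Nlrc5 and Irf1 lead the left panel, and H2-K1, Tap1 and B2m the right one.

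Markers of some other cell types moved with genotype. Of 13 macrophage genes, 10 were tested and 8 were higher, 0 lower, against 11.8% and 11.6% of all tested genes. The 13 summed to 20.9 to 26.5 FPKM in the WT libraries and 50.8 to 58.3 in G9gl. None of C1qa, Csf1r and Adgre1 was at 0 in any library, while Marco was at 0 in 3 of 6. Dendritic cell genes summed to 1.09 to 1.70 FPKM in WT and 2.93 to 4.41 in G9gl. Of these, Zbtb46, called higher, held 0.409 ± 0.233 and 1.95 ± 0.461, while Flt3 was not called. Clec9a was at 0 in 5 of 6 libraries and at 0.0302 FPKM in G9gl replicate 2. Neutrophil genes summed to 2.11 to 7.68 FPKM in WT and 12.4 to 28.5 in G9gl. Of these, S100a8, called higher, held 2.44 ± 1.44 and 13.3 ± 5.06, while S100a9 overlapped between genotypes and was not called. T cell genes summed to 37.8 to 45.8 FPKM in WT and 91.0 to 113.6 in G9gl, of which Lck alone held 37.4 ± 3.36 and 99.3 ± 10.4. Means were lower in G9gl for Cd4 (0.480 ± 0.197 FPKM in WT, 0.254 ± 0.0463 in G9gl) and Thy1. They were higher in G9gl for Cd3e (0.650 ± 0.0696 and 0.745 ± 0.541), Cd3d, Cd3g (1.35 ± 0.603 and 1.68 ± 1.17) and Cd8a. Natural killer cell genes summed to 0.399 to 2.32 FPKM in WT and 0.748 to 2.26 in G9gl, and erythroid genes to 26.4 to 43.3 and 31.9 to 219.7, both overlapping, with G9gl replicate 1 the highest for the erythroid genes. Plasma cell genes summed to 127.7 to 142.2 FPKM in WT and 143.04 to 152.3 in G9gl, and of the 4 tested, Jchain and Sdc1 were called higher and Irf4 lower. Macrophages and dendritic cells also express the immunoproteasome and PA28 genes, and the part of these cells in the rises described here was not tested. The immunoproteasome genes summed to 856 to 874 FPKM in the WT libraries and 1095 to 1218 in G9gl.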

How the data were processed

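Tables of 6 libraries (SMART-Seq HT cDNA, Nextera libraries, per the labels' protocols) held 1 value per gene symbol. The authors deposited FPKM, a unit read here from the tools and the values, since no header names it. The tools were Cufflinks 2.2.1, SAMtools 0.1.19, TopHat2 2.0.13 and Bowtie2 2.2.3, with the build mm10, per the submitters' processing notes. For the annotation and any scaling across libraries, the sources used here name nothing. The libraries keep no strand, and immunoglobulin genes were not analysed here. TPM values are shares of the summed FPKM of the 24346 symbols in the tables used here.

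From these values, limma 3.58.1 (R 4.3.3) was fitted with a mean-variance trend and a single genotype term to log2(FPKM + 1), after a minimum of 1 FPKM in at least 3 libraries, and p-values were adjusted by Benjamini-Hochberg over all 10122 genes. Ratios of gene pairs were tested by exact permutation. Depth was estimated from the FPKM of 1 fragment in genes with 1 transcript of at least 1500 bases. Positions, GC content and lengths came from GENCODE vM21 by symbol, and shared sequence from its transcripts. No 2 libraries had more than 2 identical values above 0. All 50 members could be named; those with a value in each library were the catalytic and activator genes and up to 4 of each other group by smallest p, plus Psmd14, chosen after its values were seen. The members and lists were chosen with earlier results of these data known. The alternatives were other pseudocounts, filters, scalings and weights, a robust fit, a replicate block, a GC and length trend and leaving out each library. Some genes of these lists are counted but not reported here by name or plotted.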

Additional observations from a re-analysis of the deposited data

How the results depend on the processing

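With TPM, 730 of all tested genes were higher and 2493 lower, against 1191 and 1174, and 8 proteasome genes were higher and 4 lower, against 18 and 1. Leaving out 1 library at a time gave 827 to 1136 genes higher and 718 to 1172 lower, and 10 to 15 proteasome genes higher and 0 to 1 lower. The log2 ratio difference then ranged from 0.55 to 0.71 for Psmb9/Psmb6, 0.038 to 0.13 for Psmb8/Psmb5 and 0.11 to 0.23 for Psmb10/Psmb7. With the replicate number as a block, 13 proteasome genes were higher and 0 lower; same-numbered libraries did not deviate together (correlations 0.099, -0.069 and 0.021 for numbers 1 to 3), so the numbers were not taken as pairs. Signs turned, all without a call, with TPM for Psmb6 (-0.0074), Psmc2 (-0.036), Psmc4 (-0.076), Psmc6 (-0.027), Psmd10 (-0.084), Psmd14 (-0.0092), Psmd2 (-0.066), Psme4 (-0.018) and Psmf1 (-0.039), with the GC and length trend removed for Psme4 (-0.016), without WT replicate 1 for Psmd12 (0.016, with a range of -0.058 to 0.016 over the libraries left out) and without G9gl replicate 3 for Psmd13 (0.012, with a range of -0.16 to 0.012). The cause of these changes was not tested. The other settings, which were both pseudocounts, both filters, quantile and median-ratio scaling, library weights and the robust fit, gave 12 to 20 proteasome genes higher and 1 lower, and with the GC and length trend removed 17 and 1.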
